A study of Mus musculus with 10 samples.

Results

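Genes of oocyte mRNA storage and translational repression were followed through the first cell divisions of the mouse embryo, with and without knockdown of Ago2. They were defined by name as 8 genes: Zar1, Zar1l, Ybx2, Lsm14b, Patl2, Eif4enif1, Ddx6 and Cpeb1. Of the 21437 gene names with values, 6 were among these genes. Zar1l and Patl2 were not analysed here, under these names or their RefSeq synonyms. Of the 6, 5 were tested together with all 8726 genes that had at least 1 FPKM (fragments scaled to exon length and library size) in at least 2 of the 10 libraries. Ddx6 did not pass this filter.

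The study asked how maternal mRNAs are cleared in early mouse embryos and whether AGO2, the Argonaute protein that cuts mRNAs matched by small RNAs, takes part. RNA-seq libraries came from oocytes at metaphase of the second meiosis (MII), from control embryos in the middle of the 2-cell stage or early in the 4-cell stage, and from embryos of both stages after Ago2 knockdown (Ago2 kd), with 2 libraries in each of the 5 groups. Oocytes were taken 16 h, 2-cell embryos 40 h and 4-cell embryos 55 h after hCG, the hormone that triggers ovulation. Ago2 kd embryos had been injected as zygotes with siRNA against Ago2 together with an antibody to AGO2. The oocyte and control libraries were labelled wild type. The Methods name a scrambled siRNA as negative control, without tying it to these libraries. All donors were superovulated females 7 weeks old. The labels name the strain ICR for every sample, while the protocol gives F1 females crossed with F1 males for the embryos, so strain and stage cannot be told apart between oocytes and embryos. How many oocytes or embryos went into each library was not given in the sources used here, and replicate numbers may mark technical repeats, so p-values measure the spread between these libraries only. Ago2 itself was not analysed here.

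A growing oocyte stops transcription before it matures, and then lives on stored mRNAs that are kept with short poly(A) tails in ribonucleoprotein particles. Proteins of these particles protect and silence the mRNAs, either by coating them or by blocking the cap-binding protein eIF4E, and CPEB1 marks some of them for later elongation of the tail and translation. The mRNAs that encode these proteins are themselves part of the maternal store. ZAR1 and its relative ZAR1L are zinc finger proteins that bind stored mRNAs. YBX2 (MSY2) is a germ cell Y-box protein that coats mRNAs. LSM14B and PATL2 are RNA-binding proteins of repressed particles. EIF4ENIF1 (4E-T) binds eIF4E and keeps capped mRNAs from being translated. DDX6 is an RNA helicase of P-bodies and storage particles.

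The libraries differed in their FPKM sums, which were 450124 to 458874 in oocytes and 178681 to 326352 in embryos. Since FPKM hold no read counts, the depth of each library is unknown and no counting error can be given. Scaling all libraries to 1 total moved the median difference of all genes tested by 0.98 log2 units between oocytes and 2-cell control embryos. In that comparison 31.5% of the genes called were higher at the 2-cell stage on unscaled FPKM, against 64.1% after scaling to 1 total, 47.3% after scaling to 1 median and 47.5% after quantile normalization. The 6 oocyte markers Zp1, Zp2, Zp3, Gdf9, Bmp15 and Oosp1 summed to between 6863 and 8332 FPKM in oocytes, with Zp1 near 0. Their sum was 1336 to 1692 FPKM in 2-cell control and 1145 to 1317 FPKM in 2-cell Ago2 kd libraries. It was 4.38 to 10.7 FPKM in 4-cell control and 20.9 to 36.8 FPKM in 4-cell Ago2 kd libraries, without overlap. Of the 6, Oosp1 alone was higher in each 4-cell Ago2 kd library, at 10.4 and 17.0 against 5.33 and 3.17 FPKM. At this stage Zp3 had 23.5 FPKM in replicate 1 of Ago2 kd and was otherwise listed at 0, and Gdf9 overlapped between the groups. Of 8 cumulus cell markers, Foxl2 was the 1 with a row, and it was listed at 0 in every library. Of the 4 sperm markers, the 2 with a row summed to at most 1.78 FPKM. Of 8 markers of 2-cell activation, the 6 with a row summed to 646 to 741 FPKM in 2-cell control and 351 to 510 FPKM in 2-cell Ago2 kd libraries. In 4-cell libraries their sums overlapped, at 72.2 to 147 FPKM in control and 82.3 to 180 FPKM in Ago2 kd. Tcstv1, Tcstv3 and Zfp352 were higher in each 4-cell Ago2 kd library than in each 4-cell control. Tdpoz4 overlapped there, and Zscan4d and Usp17la were listed at 0. Replicate 1 of 4-cell Ago2 kd stood apart, with 14.6% of the genes above 10 FPKM in replicate 2 below 0.1 FPKM in it, against 1.61% to 5.81% in libraries of the other groups. A lone 0 was therefore not taken to mean that an mRNA was absent. The spread between the oocyte libraries is in doubt, because another list of the study divides many genes differently between them. Of their nonzero values 22.2% to 23.5% were written with over 6 digits, against 1.40% to 1.82% in embryo libraries. The standard errors and p-values of all comparisons with oocytes rest in part on that spread.

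Zar1 was the most abundant storage gene in oocytes (ENSMUSG00000063935.3; chromosome 5, 72576806 to 72581254 of GRCm38, minus strand). Its level was 1189 and 1538 FPKM in the oocyte libraries, and its mean ranked 41 from the top of all 21437 genes. At the 2-cell stage it had 1.70 and 0.00486 FPKM in control and 0.0767 and 5.19 in Ago2 kd libraries, and it was listed at 0 in all 4 libraries of the 4-cell stage. Both oocyte libraries lay far above all 8 embryo libraries, and the 2-cell control and Ago2 kd values overlapped. From oocyte to 2-cell control embryo, Zar1 fell by 9.68 on the log2(FPKM + 1) scale (standard error 0.85, adjusted p = 0.000552 from limma with Benjamini-Hochberg adjustment). In bulk libraries, fewer cells and less RNA per cell cannot be told apart, and neither can loss of 1 mRNA and gain of others.

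Cpeb1 showed the same early fall (ENSMUSG00000025586.17; chromosome 7, 81347026 to 81455465, minus strand). It had 107.6 and 50.4 FPKM in oocytes, 0.498 and 0.244 in 2-cell control embryos, and 0.120 and 0.231 in 2-cell embryos after Ago2 kd. At the 4-cell stage it had 0.0840 and 0.166 FPKM in control and 0.196 and 0.273 in Ago2 kd libraries. The oocyte libraries lay above all others. They alone carried Cpeb1 past the filter, so the direction of its change from oocyte to embryo was fixed in advance. Both Ago2 kd libraries lay below both controls at the 2-cell stage but above both controls at the 4-cell stage. All these embryo values were at or below 0.498 FPKM, and how many of all genes separate in this way was not counted. Cpeb1 fell by 5.77 on the log2 scale from oocyte to 2-cell control embryo (standard error 0.42, limma adjusted p = 0.000276). This was 95.4% of its fall of 6.05 from oocyte to 4-cell control embryo, a share that depends on the 1 added before taking logs. With 0.1 in its place the first step was -7.35 and the whole difference -8.38 log2 units. At the 2-cell stage 0.630% and 0.308% of the mean oocyte FPKM was left in the control libraries.

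The RefSeq promoter windows of Zar1 and Cpeb1 are shown because these genes had the steepest falls at the first step. Each runs from 250 bases before to 50 bases after the annotated start on GRCm38.p6, 5′ to 3′, Zar1 at chr5:72581035-72581334 (minus strand) and Cpeb1 at chr7:81454709-81455008 (minus strand). Capitals mark E-box letters, CANNTG, the core bound by helix-loop-helix factors such as the oocyte factor FIGLA, and in Cpeb1 also TATAAA read on the opposite strand.
Zar1: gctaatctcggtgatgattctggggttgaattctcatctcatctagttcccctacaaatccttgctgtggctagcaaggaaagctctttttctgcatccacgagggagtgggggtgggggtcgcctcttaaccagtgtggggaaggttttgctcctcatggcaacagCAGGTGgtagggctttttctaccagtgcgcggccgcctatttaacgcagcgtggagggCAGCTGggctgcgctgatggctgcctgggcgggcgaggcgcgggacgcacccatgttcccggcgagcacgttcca
Cpeb1: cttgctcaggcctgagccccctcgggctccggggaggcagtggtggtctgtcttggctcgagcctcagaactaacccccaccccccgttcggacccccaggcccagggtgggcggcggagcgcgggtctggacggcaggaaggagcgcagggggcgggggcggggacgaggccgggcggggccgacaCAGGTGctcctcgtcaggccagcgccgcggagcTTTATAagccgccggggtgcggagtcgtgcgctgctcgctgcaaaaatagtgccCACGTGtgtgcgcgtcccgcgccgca
In Zar1 the E-box matches CAGGTG and CAGCTG begin at -83 and -25 from the start site. In Cpeb1 the matches CAGGTG and CACGTG begin at -63 and 25, and the TATAAA match begins at -30. E-box letters on either strand were present in 72.3% of the 32851 windows of 27025 genes and TATAAA in 13.6%, so matches are common in windows of this length. Of the 8 genes 7 had a RefSeq window, and TAATTG, the core of the element bound by the oocyte factor NOBOX, was found in Zar1l alone among them, at 2 places, against 8.0% of all windows.

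Lsm14b fell at both steps (ENSMUSG00000039108.14; chromosome 2, 180024987 to 180035465, plus strand). It had 64.3 and 32.9 FPKM in oocytes, 5.18 and 6.05 in 2-cell control embryos, and 5.61 and 5.92 in 2-cell embryos after Ago2 kd. At the 4-cell stage it had 1.18 and 0.141 FPKM in control libraries and was listed at 0 in both Ago2 kd libraries. The 3 stages did not overlap, and at the 2-cell stage both Ago2 kd libraries lay between the controls. From oocyte to 2-cell control embryo Lsm14b fell by 2.83 on the log2 scale (standard error 0.48, limma adjusted p = 0.00714), a call lost after scaling to 1 FPKM total. From 2-cell to 4-cell control embryo it fell by a further 2.07 (standard error 0.48, limma adjusted p = 0.0147), a call lost in 4 of 20 alternatives, among them those without replicate 1 or 2 of the 2-cell control or replicate 2 of the 4-cell control, with adjusted p of 0.0508 to 0.0641. On log2(FPKM + 1) the first step held 57.8% of the whole fall of 4.90 log2 units. The 4-cell values are near 0, so this share depends on the 1 added before taking logs. With 0.1 in its place the first step was -3.02 and the second -3.36 log2 units, so neither step can be called the larger.

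Among the storage genes Eif4enif1 was second to Zar1 in oocytes, per length, and its larger fall was at the second step (ENSMUSG00000020454.17; chromosome 11, 3202392 to 3244588, plus strand). It had 147.2 and 122.5 FPKM in oocytes, 35.0 and 46.1 in 2-cell control embryos, and 43.2 and 97.3 in 2-cell embryos after Ago2 kd. At the 4-cell stage it had 1.45 and 2.46 FPKM in control and 2.60 and 2.19 in Ago2 kd libraries. The 3 stages did not overlap, while control and Ago2 kd values overlapped at each stage. Eif4enif1 fell by 1.72 on the log2 scale from oocyte to 2-cell control embryo (standard error 0.46, limma adjusted p = 0.0399). It fell by 3.82 from 2-cell to 4-cell control embryo (standard error 0.46, limma adjusted p = 0.00106), so that the first step held 31.0% of the whole fall of 5.54 log2 units; the difference between the steps was not tested. The early call was lost in 12 of 20 alternatives, with an adjusted p of 0.139 when the oocyte libraries were averaged, and after scaling to 1 FPKM total the difference was -0.55 (limma adjusted p = 0.526), whereas the later call was kept in all 20. Drg1 overlaps the Eif4enif1 locus on the opposite strand but shares no exon base with it, and Drg1 ran the other way, from 0.267 and 1.25 FPKM in oocytes to 197.2 and 163.2 in 4-cell control embryos.

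Ybx2 was the lowest of the 5 in oocytes, and its 2-cell control replicates lay far apart (ENSMUSG00000018554.13; chromosome 11, 69935796 to 69941605, plus strand). It had 7.15 and 17.8 FPKM in oocytes, 49.2 and 1.87 in 2-cell control embryos, and 35.5 and 17.3 in 2-cell embryos after Ago2 kd. At the 4-cell stage it had 3.57 and 2.44 FPKM in control and 4.10 and 1.55 in Ago2 kd libraries. The 2-cell control libraries spanned both the highest value of all 10 and a value below both 4-cell controls, so stages and treatments overlapped there. All 4 libraries of the 4-cell stage lay below both oocyte libraries. No limma comparison called Ybx2, and its difference between 2-cell control embryo and oocyte was -0.04 log2 units with a 95% interval from -3.04 to 2.95. Without replicate 2 of the 2-cell control, its difference from 2-cell to 4-cell control embryo was -3.66 (limma adjusted p = 0.0207), against -1.60 (limma adjusted p = 0.356) with it. Without replicate 1 of the 2-cell control the same difference was 0.46 (limma adjusted p = 0.718), so its direction depended on which library was left out.

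Ddx6 (ENSMUSG00000032097.10; chromosome 9, 44604892 to 44640731, plus strand) was listed at 0 in 8 of the 10 libraries, including both oocyte libraries. It had 5.84 FPKM in replicate 1 of the 4-cell control and 0.750 FPKM in replicate 2 of 4-cell Ago2 kd. Its values thus do not separate any groups. Some genes that every cell uses were also at or near 0. Gapdh, an enzyme of glycolysis, reached at most 0.167 FPKM, and Ppia, a cyclophilin, was listed at 0 in 6 libraries. Hprt, by contrast, had at least 69.8 FPKM in every library, and Actb, Eef1a1 and Rplp0 ranged from below 1 to 91.1, 556.2 and 92.5 FPKM. In both oocyte libraries 9408 genes (43.9%) were listed at 0, so nothing is read from the zeros of Ddx6.

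**Figure D1:**
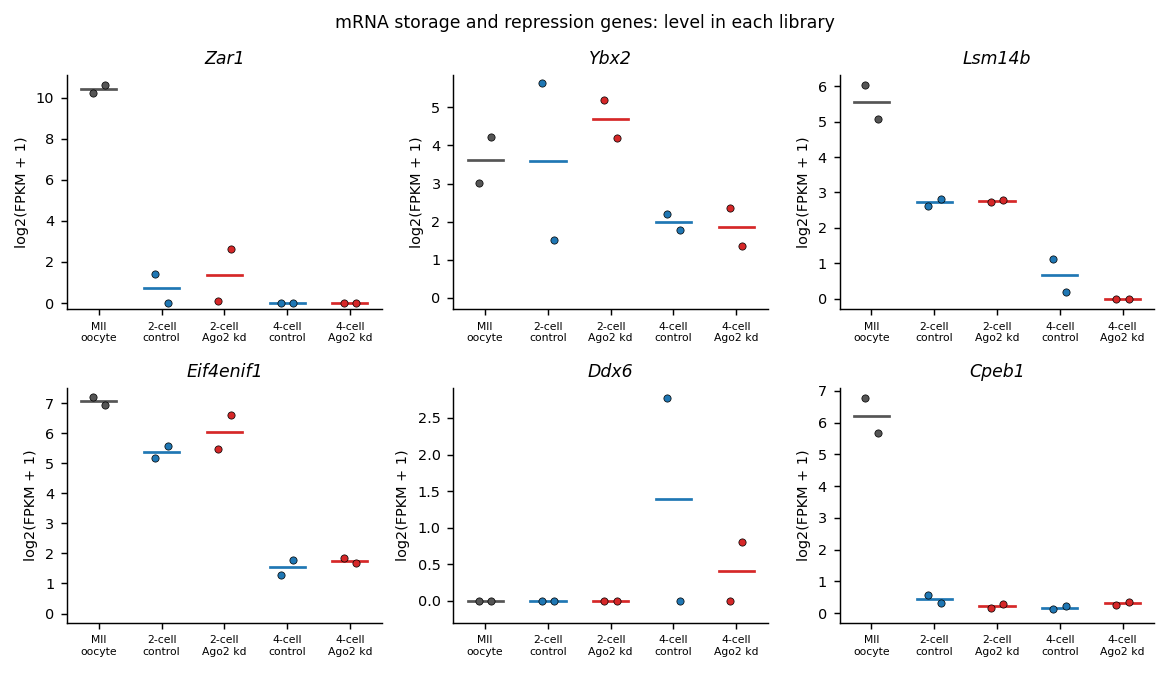
Level of each storage gene with a row, as log2(FPKM + 1), in the 10 libraries; points are single libraries, horizontal lines the means of 2 libraries, and each panel has its own axis. Zar1 and Cpeb1 dropped to near 0 by the 2-cell stage, Lsm14b and Eif4enif1 kept an intermediate level there, the 2-cell control libraries of Ybx2 lay far apart at 49.2 and 1.87 FPKM, and Ddx6 was listed at 0 in 8 libraries.

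The 3′ ends of the mRNAs are shown because storage factors act there: CPEB1 binds the cytoplasmic polyadenylation element, and cleavage factors bind a hexamer close to the end. For Zar1, Lsm14b, Eif4enif1 and Ybx2, 1 protein-coding transcript each of GENCODE M21 was read, and 30 bases are printed, 5′ to 3′, with the hexamer AATAAA or ATTAAA or, in Ybx2, the element in capitals. Positions on GRCm38 are chr5:72577129-72577158 for Zar1, chr2:180035417-180035446 for Lsm14b, chr11:3244530-3244559 for Eif4enif1, and chr11:69941520-69941549 for Ybx2, each in the 3′ UTR of the last exon.
Zar1: gtgtacttggatataaagcctgtgAATAAA
Lsm14b: ccactgttggggaaatgcaaactaAATAAA
Eif4enif1: atttgggactttttcttttggtttATTAAA
Ybx2: ctccccccaacacctctgaagccaTTTTAT
The hexamer was sought in the last 40 bases and begins 21 to 35 bases from the end in Zar1, Lsm14b and Eif4enif1. In Ybx2 neither form of the hexamer was found in these bases, whereas 73.5% of 19536 genes held one. TTTTAT or TTTTAAT, taken as letters of the polyadenylation element, were sought on the mRNA strand in the last 100 bases and found in 17.9% of these genes. Of these 4 storage genes, Ybx2 alone held them, 62 bases from the end. The mRNAs of Zar1, Lsm14b and Eif4enif1 hold none of these letters in that window, which says nothing about variant elements or elements farther from the end.

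From oocyte to 2-cell control embryo, 4 of the 5 tested storage genes fell and none rose by limma after Benjamini-Hochberg adjustment. Of all 8726 genes 14.2% were called lower and 6.54% higher. Cpeb1, among those that fell, passed the filter through the oocyte libraries alone, so the direction of its change was fixed in advance. The 5 had a median difference of -2.83 log2 units, against -0.06 over all genes tested. After scaling to 1 FPKM total, 2 of them remained called. Zar1 then differed by -9.89 (limma adjusted p = 0.00530) and Cpeb1 by -5.87 (limma adjusted p = 0.000900), while Lsm14b differed by -1.82 (limma adjusted p = 0.117). As a share of the mean oocyte FPKM, 10.7% and 12.4% of Lsm14b and 26.0% and 34.2% of Eif4enif1 were left in the 2-cell control libraries. On values scaled to 1 total these shares were 24.6% and 27.7% for Lsm14b, and 60.1% and 76.2% for Eif4enif1.

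From 2-cell to 4-cell control embryo, 2 of the 5, Lsm14b and Eif4enif1, fell, and 17.5% of all genes tested were called lower and 21.1% higher. The median over the 5, against 0.24 over all genes, was the uncalled -1.60 log2 units of Ybx2. It was -0.15 without replicate 1 and -1.97 without replicate 2 of the 2-cell control. Zar1 and Cpeb1 were already at or below 1.70 FPKM in the 2-cell controls, and Cpeb1 differed by -0.28 with a 95% interval from -1.28 to 0.72. Over both steps together 4 of the 5 were lower at the 4-cell stage, where 26.3% of all genes were lower and 22% higher. For Cpeb1 this direction, too, was fixed by the filter. The median of the 5, that of Eif4enif1, was -5.54 log2 units against 0 over all genes. These 3 comparisons share libraries and are not independent. An exact permutation test cannot reach a p below 0.333 with groups of this size, so each call rests on the spread that limma pools over genes and groups.

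**Figure D2:**
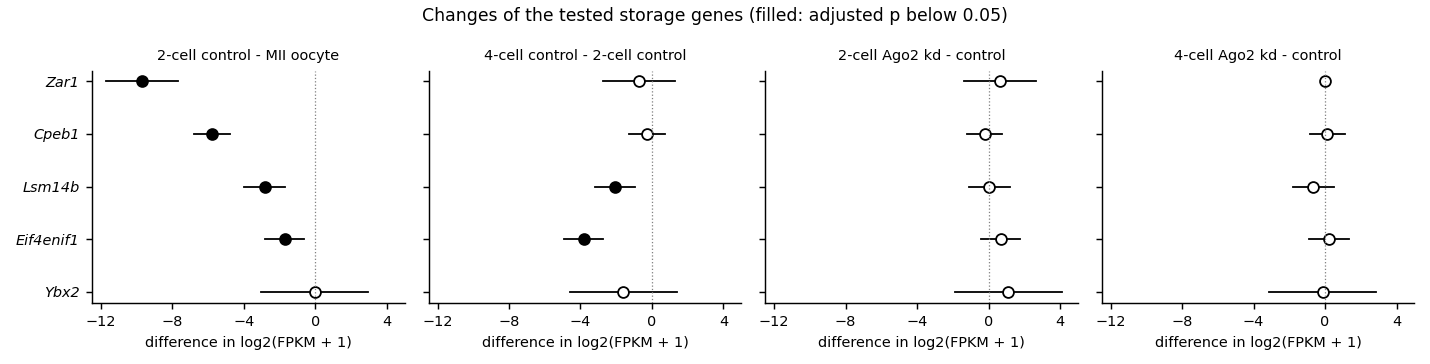
Difference in log2(FPKM + 1) of the 5 tested storage genes (points) with its 95% interval from limma (lines) in 4 comparisons of 2 libraries with 2; filled points have an adjusted p below 0.05, and Zar1, listed at 0 in all 4-cell libraries, has no interval in the last panel. Zar1 and Cpeb1 were called at the first step, Lsm14b and Eif4enif1 at both steps, and no gene in either Ago2 kd comparison.

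Ago2 kd changed none of the 5 detectably at the 2-cell stage, where 0.55% of all genes were called in either direction. None was called by limma after adjustment, and none had an unadjusted p below 0.05, against 5.96% of all genes. Eif4enif1 had the smallest p, with a difference of 0.68 log2 units between Ago2 kd and control (95% interval -0.41 to 1.77, limma unadjusted p = 0.185, adjusted p = 1). In Ago2 kd embryos 32.0% and 72.2% of the mean oocyte FPKM of Eif4enif1 was left, and the lower of these values lay between the controls. For Lsm14b the difference was 0.03 (95% interval -1.11 to 1.18), and for Cpeb1 it was -0.22 (95% interval -1.22 to 0.78). For Zar1 the interval ran from -1.37 to 2.66 and for Ybx2 from -1.89 to 4.10, so changes of several fold in either gene were not detectable here. Over the 5 genes the median, against 0 over all genes, was the uncalled 0.65 log2 units of Zar1, whose groups overlapped. It was 0.48 or -0.07 without replicate 1 or 2 of the 2-cell control. Without replicate 1 or 2 of 2-cell Ago2 kd it was 0.61 or 0.0018.

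At the 4-cell stage, too, limma called none of the 5 after adjustment and none at an unadjusted p below 0.05, where 4% of all genes were called after adjustment and 15.4% before it. Eif4enif1 differed by 0.22 log2 units (95% interval -0.87 to 1.31) and Cpeb1 by 0.13 (95% interval -0.86 to 1.13). Lsm14b was listed at 0 in both Ago2 kd libraries and had 1.18 and 0.141 FPKM in the controls (limma adjusted p = 0.614). Ybx2 differed by -0.14 (95% interval -3.13 to 2.86), and Zar1 was listed at 0 in all 4 libraries. The median of the 5 was the 0 of Zar1, which its zeros in both groups fixed. The median over all genes tested was also 0. The Ago2 kd effect did not differ detectably between the stages for any of the 5 in the interaction test of limma, with none at an unadjusted p below 0.05, where 2.28% of all genes were called after adjustment and 13.4% before it.

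Within Ago2 kd embryos the second step took the same 2 genes as in controls, Lsm14b and Eif4enif1, where 16.5% of all genes were called lower and 18.8% higher. Eif4enif1 fell by 4.28 on the log2 scale (standard error 0.46, limma adjusted p = 0.000829). Lsm14b went from 5.61 and 5.92 FPKM to being listed at 0 (limma adjusted p = 0.00496). The median of the 5 falls on Lsm14b and is not given, since a difference from a group at 0 depends on the pseudocount. Ybx2 differed by -2.84 (limma adjusted p = 0.130), and without either replicate 1 or replicate 2 of the 2-cell control, which enter the pooled spread, the adjusted p was 0.0201 and 0.0198. Zar1, at 0.0767 and 5.19 FPKM and then listed at 0, had a limma adjusted p of 0.259, which became 0.0336 without replicate 1 of 2-cell Ago2 kd.

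The patterns of the 5 genes over the 10 libraries were compared as the root mean square difference of log2(FPKM + 1) after removal of each gene's mean. The closest pair was Lsm14b and Eif4enif1, at 0.952 log2 units, and the farthest was Zar1 and Ybx2, at 3.89. Among all genes tested, Cpeb1 was most like Gm527, Tmco6 and Edem2, at 0.132 to 0.207. Eif4enif1 was most like Gm14635, Rgs17 and Nkd1, at 0.272 to 0.366, and Lsm14b most like Gm8396, Zcchc3 and Lrrtm2, at 0.327 to 0.399. Zar1 had no near match: its closest genes Txnip, Obox2 and Plat were 0.825 to 0.841 away. Ybx2 was closest to Gm7173, Trappc6a and Tmbim1, at 0.555 to 0.631. These distances describe the libraries, and genes of large range have larger distances.

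The paralogs of the storage genes did not all follow them. Of 11 paralogs, 10 had a row and 9 were tested; Patl1 was not analysed here. From oocyte to 2-cell control embryo 3 of the 9 fell and none rose, and from 2-cell to 4-cell control embryo 2 rose and 2 fell. Of all genes 6.54% were called higher and 14.2% lower at the first step, and 21.1% and 17.5% at the second. The median of the 9 was -1.87 log2 units at the first step, against -0.06 over all genes, and 0.11 at the second, against 0.24 over all genes. Over both steps 3 of the 9 were higher and 3 lower, with a median of -1.05, where 22% of all genes were higher and 26.3% lower.

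Lsm14a, the paralog of Lsm14b, had 66.7 and 91.0 FPKM in oocytes and 0.515 and 0.228 in 2-cell control embryos. It had 0.434 and 4.25 FPKM in 2-cell embryos after Ago2 kd, and between 0.0610 and 0.599 in the 4-cell libraries. It fell by 5.86 on the log2 scale at the first step (standard error 0.63, limma adjusted p = 0.00125), so that Lsm14b, at 5.18 to 6.05 FPKM, was above it in every 2-cell library, both values being per length. The oocyte libraries of Lsm14a lay above all embryo libraries.

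Ybx1, the Y-box gene of most somatic cells, ran opposite to the storage genes at the second step. It had 53.0 and 54.7 FPKM in oocytes, 17.1 and 11.5 in 2-cell control embryos, and 774.8 and 743.0 in 4-cell control embryos. In 2-cell embryos after Ago2 kd it had 4.06 and 5.19 FPKM, below both 2-cell controls, a difference not called after adjustment. It fell by 1.87 at the first step (limma adjusted p = 0.00835), a call lost after scaling to 1 FPKM total and after quantile normalization, and then rose by 5.66 log2 units (standard error 0.33, limma adjusted p = 7.08e-05). In oocytes and 4-cell control embryos alike Ybx1 was above Ybx2, per length. Ybx3 had 39.8 and 0.130 FPKM in oocytes and between 0.117 and 6.43 elsewhere, and was called in no comparison. Processed copies of Y-box genes can share reads with the parent gene, which makes the level of Ybx1 uncertain.

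Among the relatives of Cpeb1, Cpeb4 was not called at the first step and fell at the second. It had 34.7 and 36.2 FPKM in oocytes, 54.2 and 42.6 in 2-cell and 4.92 and 4.20 in 4-cell control embryos, and 33.9 and 73.7 then 4.75 and 11.4 in the Ago2 kd libraries of these stages. Its fall at the second step was 3.15 log2 units (standard error 0.52, limma adjusted p = 0.00376). All 2-cell libraries of Cpeb4 were above 30 FPKM, while Cpeb1 was below 0.5 FPKM in each. Cpeb2 was listed at 0 except for 14.8 and 24.8 FPKM in replicate 2 of 4-cell control and Ago2 kd, and Cpeb3, below the filter, except for 1.48 in replicate 2 of the 4-cell control.

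The cap-binding genes of the eIF4E family, whose products EIF4ENIF1 can bind or which relate to them, took different courses. Eif4e3 had 385.1 and 501.2 FPKM in oocytes, 61.6 and 61.3 in 2-cell control and 138.8 and 110.0 in 2-cell embryos after Ago2 kd, and was listed at 0 in all 4-cell libraries. It fell by 2.82 at the first step (limma adjusted p = 0.00141) and was called lower again at the second (limma adjusted p = 5.56e-05). Eif4e2 was the reverse: listed at 0 in all oocyte and 2-cell libraries, it reached 70.8 and 87.1 FPKM in 4-cell control and 54.6 and 57.2 in 4-cell Ago2 kd embryos. Its rise was called by limma (adjusted p = 5.56e-05). Eif4e itself had 0.565 and 0.604 FPKM in oocytes and 65.1 and 80.7 in 2-cell control embryos, but 0.361 and 86.5 in the 2-cell Ago2 kd libraries. Its 4-cell levels were 79.1 and 76.99 FPKM in control and 190.4 and 141.1 in Ago2 kd embryos, and Eif4e was called higher only between oocyte and 4-cell control embryo among these comparisons (limma adjusted p = 0.0268, lost in 6 of 20 alternatives). The oocyte form Eif4e1b had 7.19 and 5.27 FPKM in oocytes, 0.592 and 0.891 in 2-cell control and 0 and 14.3 in 2-cell embryos after Ago2 kd, and was listed at 0 at the 4-cell stage.

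**Figure D3:**
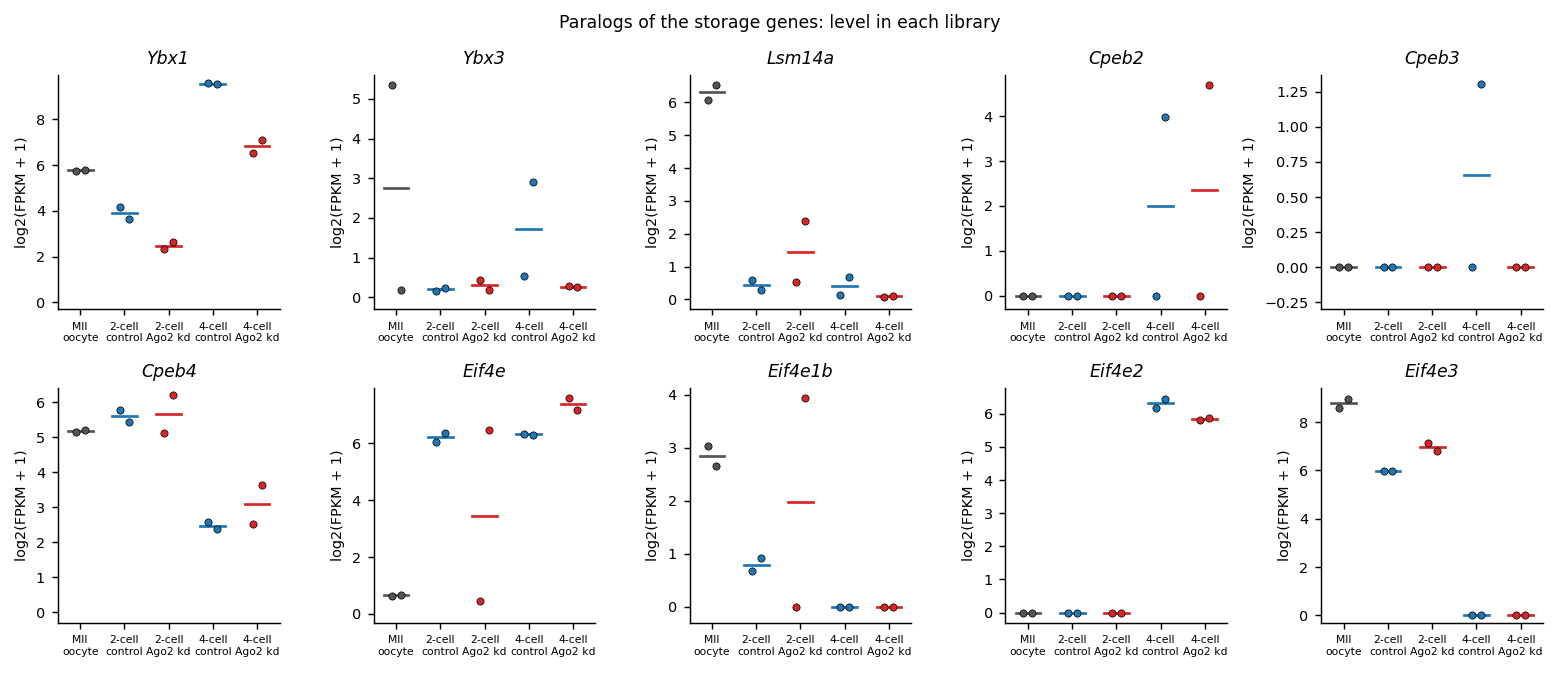
Level of the 10 paralogs with a row, as log2(FPKM + 1), in each library; points are single libraries, lines the means of 2 libraries, and each panel has its own axis. Lsm14a and Eif4e3 were highest in oocytes, Eif4e2 was listed at 0 until the 4-cell stage, and Ybx1 was highest in 4-cell control embryos at 774.8 and 743.0 FPKM, above 92.9 and 137.6 FPKM in 4-cell Ago2 kd embryos.

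The other genes of the pathway were described as lists of cytoplasmic polyadenylation and poly(A) binding (9 tested of 14) and of further RNA-binding or P-body proteins (18 tested of 25). From oocyte to 2-cell control embryo, 1 gene of the first list rose and 2 fell, with a median of -0.20 log2 units, where 6.54% of all genes were called higher and 14.2% lower. Pabpn1l, an oocyte poly(A)-binding protein, had 52.7 and 59.5 FPKM in oocytes and was listed at 0 in both 2-cell controls (limma adjusted p = 0.000391). Fip1l1, a polyadenylation factor, fell by 4.71 (limma adjusted p = 0.0237, lost in 8 of 20 alternatives), and Cpsf4, of the cleavage and polyadenylation complex, rose by 2.33 (limma adjusted p = 0.0340, lost in 7 of 20). At the second step Cpsf4 rose by 2.40 (limma adjusted p = 0.0190, lost in 4 of 20), and Pabpc1l, a poly(A)-binding protein of oocytes and early embryos, fell by 4.08 (limma adjusted p = 0.0251, lost in 8 of 19). Pabpc1l had 0.544 and 0.515 FPKM in oocytes and 20.8 and 13.0 in 2-cell control embryos, the reverse order of Zar1 and Cpeb1. This rise was not called (limma adjusted p = 0.0659), and the 2-cell Ago2 kd libraries of Pabpc1l lay apart at 17.4 and 0.257 FPKM. The median of the list at the second step was 0.26, against 0.24 over all genes.

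Of the 18 RNA-binding and P-body genes 6 fell and none rose at the first step, where 14.2% of all genes were called lower and 6.54% higher, with a median of -1.07 log2 units. After scaling to 1 FPKM total, Igf2bp2 kept its call and the other 5 lost theirs. Fxr1, a relative of the fragile X protein, fell by 6.01 (limma adjusted p = 0.0198, lost in 6 of 20 alternatives), and Igf2bp2, an mRNA-stabilizing protein, fell by 4.17 (limma adjusted p = 0.00142, kept in 20 of 20). Edc4, a decapping scaffold, fell by 3.55 (limma adjusted p = 0.0278, lost in 9 of 20), and Igf2bp3, a relative of Igf2bp2, fell by 2.62 (limma adjusted p = 0.0462, lost in 12 of 20). At the second step 5 of the 18 rose and 1 fell, where 21.1% of all genes were called higher and 17.5% lower, with a median of 1.20 against 0.24 over all genes. Khdrbs1 (SAM68) rose by 5.32 (limma adjusted p = 0.00539), Caprin1 by 4.84 (limma adjusted p = 0.00730) and Fmr1 by 2.16 (limma adjusted p = 0.0333, lost in 8 of 20). Syncrip went from being listed at 0 in all oocyte and 2-cell libraries to 5.80 and 6.15 FPKM in 4-cell controls (limma adjusted p = 0.000116). It passed the filter through these controls alone, so the direction of this change was fixed in advance. Nanos1, a translational repressor, fell by 1.17 (limma adjusted p = 0.0460, lost in 12 of 20).

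**Figure D4:**
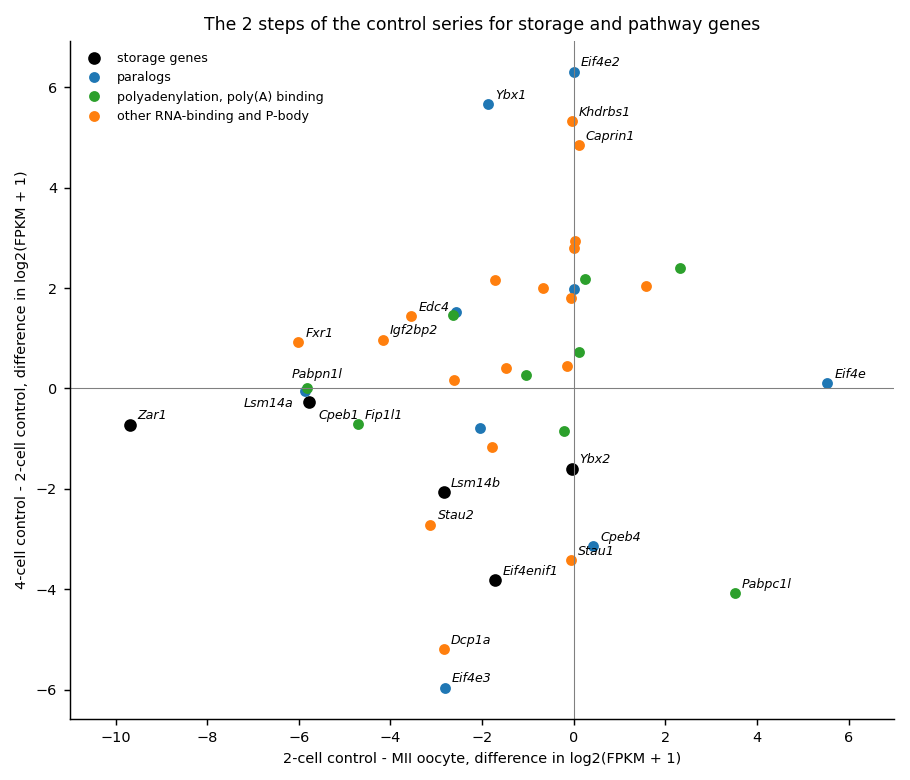
Differences in log2(FPKM + 1) of the 5 storage genes and the 36 tested pathway genes between 2-cell control embryo and oocyte (x axis) and between 4-cell and 2-cell control embryo (y axis); each point is a gene, and zeros enter as log2(0 + 1). The storage genes lay at or left of 0 and below 0, whereas Ybx1, Eif4e2, Khdrbs1 and Caprin1 lay far above 0 at the second step; both axes contain the 2-cell control libraries.

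Over both steps, 1 polyadenylation gene was higher and 2 lower at the 4-cell stage than in oocytes, and 4 RNA-binding genes were higher and 6 lower, where 22% of all genes were called higher and 26.3% lower. The medians were -0.78 and -0.38 log2 units. Cpsf4 was higher by 4.73 (limma adjusted p = 0.000784), and Fip1l1 differed by -5.43 (limma adjusted p = 0.00594). Dcp1a, a decapping activator, had 251.5 and 270.2 FPKM in oocytes, 47.7 and 26.7 in 2-cell controls, and was listed at 0 in all 4-cell libraries (limma adjusted p = 0.00808). Stau2, a double-stranded RNA-binding protein, had 74.8 and 42.7 FPKM in oocytes and was also listed at 0 there (limma adjusted p = 0.00655). Khdrbs1 and Caprin1 were higher at the 4-cell stage by 5.27 and 4.95 (limma adjusted p = 0.00381 and 0.00467).

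At the 2-cell stage Ago2 kd changed none of the 36 pathway genes after adjustment by limma, where 0.55% of all genes were called. An unadjusted p below 0.05 was found in 3 of the 36, of which 2 were higher, against 5.96% of all genes in either direction. At the 4-cell stage 3 of the 36 were lower and none higher, where 2.77% of all genes were called lower and 1.23% higher. Ybx1 had 774.8 and 743.0 FPKM in control and 92.9 and 137.6 in Ago2 kd libraries, a difference of -2.74 log2 units (standard error 0.33, limma adjusted p = 0.00556). Syncrip had 5.80 and 6.15 FPKM in control and 0.196 and 0.0343 in Ago2 kd libraries, a difference of -2.65 (standard error 0.19, limma adjusted p = 0.000628). It passed the filter through the 4-cell controls alone, so a lower Ago2 kd value was fixed in advance. Its zeros in all oocyte and 2-cell libraries add no spread to the pooled fit, which makes this standard error small. For both genes each Ago2 kd library lay below each control library. The summed oocyte markers, at 20.9 to 36.8 FPKM in Ago2 kd against 4.38 to 10.7 in control libraries, moved with this comparison. The shift of their sum came from Oosp1 and, in replicate 1 of Ago2 kd, Zp3, not from the oocyte markers as a group. Of the markers of 2-cell activation, Tcstv1, Tcstv3 and Zfp352 were also higher in both 4-cell Ago2 kd libraries, with Tcstv3 at 13.7 and 13.5 against 0.541 and 0.812 FPKM. Tdpoz4 overlapped, and Zscan4d and Usp17la were listed at 0. The part of all these markers in the result was not tested. The calls of Ybx1 and Syncrip were lost when the fit held the 4-cell libraries alone. That fit called 0 genes after adjustment and 950 at an unadjusted p below 0.05 by limma. Celf1, a deadenylation-promoting RNA-binding protein, differed by -1.40 (limma adjusted p = 0.0429), a call lost in 18 of 19 alternatives. The median of the 36 was -0.40 log2 units, against 0 over all genes.

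**Figure D5:**
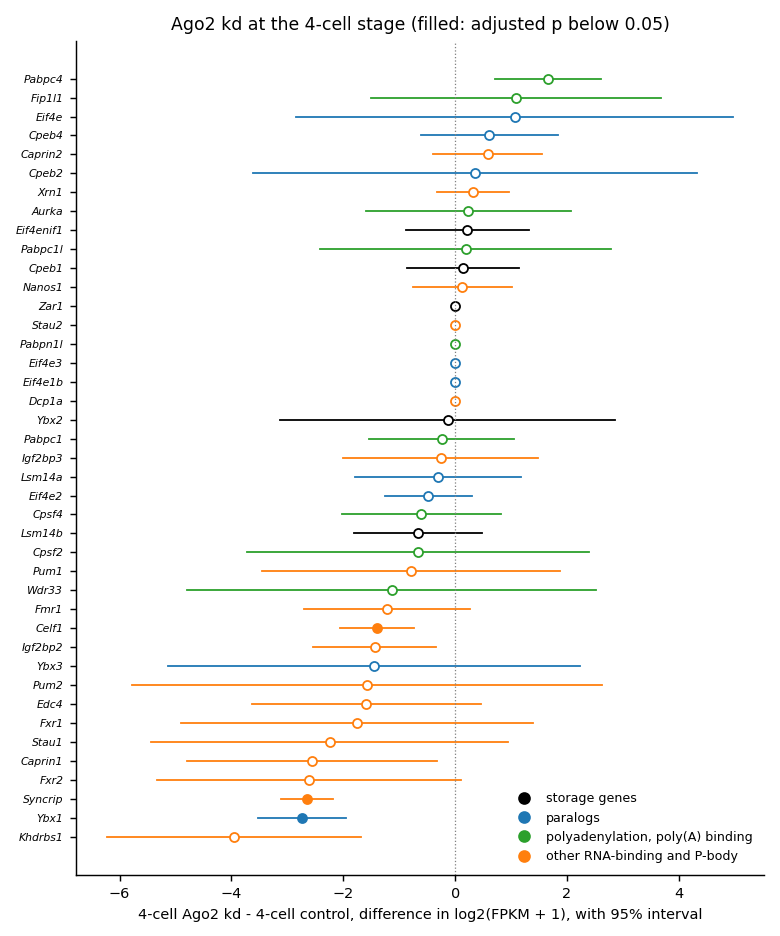
Difference in log2(FPKM + 1) between Ago2 kd and control embryos at the 4-cell stage for the 5 storage genes and the 36 tested pathway genes, ordered by size, with 95% intervals from limma on 2 libraries a group; filled points have an adjusted p below 0.05, and genes listed at 0 in all 4 libraries have no interval. The storage genes lay between -0.66 and 0.22, and Ybx1, Syncrip and Celf1 were the genes called. Syncrip passed the filter through the 4-cell control libraries alone.

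Within Ago2 kd embryos, 3 of the 36 pathway genes rose and 3 fell from the 2-cell to the 4-cell stage, where 18.8% of all genes were called higher and 16.5% lower. Ybx1 rose by 4.35 (limma adjusted p = 0.000217), and Eif4e2 rose from being listed at 0 (limma adjusted p = 8.56e-05). Cpeb4 fell by 2.59 (limma adjusted p = 0.00827), Eif4e3 fell to being listed at 0 (limma adjusted p = 5.23e-05), and Stau1, a double-stranded RNA-binding protein, fell by 4.59 (limma adjusted p = 0.0358, lost in 11 of 20 alternatives). Xrn1, the 5′ to 3′ exonuclease, rose by 0.86 (limma adjusted p = 0.0459, lost in 13 of 19). Ybx1, Eif4e2, Eif4e3 and Cpeb4 were also called in the same direction in control embryos.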

How the data were processed

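RNA-seq of 2 libraries in each of 5 groups was used, grouped by the sample labels. The authors trimmed reads with Trim Galore, aligned them to GRCm38 (mm10 in the labels) with HISAT2 2.1.0 and computed FPKM with StringTie; the submitters' processing notes also name CASAVA 1.4. The deposited values are FPKM, 1 per gene name and library; how several identifiers became 1 row was not given in the sources used here, and depth is unknown. For the oocytes, a supplementary list of the study divides many genes differently between the replicates, so the spread between them is in doubt, and with it the standard errors and p-values of comparisons with oocytes. Alternatives that average these libraries or leave them out were added after seeing the data.

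FPKM were analysed here as log2(FPKM + 1), so changes of low genes are understated, for the 8726 genes that reached 1 FPKM in 2 or more libraries. In R 4.3.3, limma 3.58.1 fitted 1 mean per group to all 10 libraries (5 residual degrees of freedom), with variances moderated along a trend on the mean. Tests were two-sided with Benjamini-Hochberg adjustment over all genes tested, at 0.05, and the script was tested on simulated data. The study's DESeq2 needs read counts and was not used.

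All 8 storage genes, all paralogs, and per list and comparison at most the 4 largest changes called in each direction are named, with the 3 genes most like each tested storage gene. The storage genes and lists were chosen with earlier results of these data known. Alternatives were another pseudocount, other filters, 3 scalings, a replicate term, fits of the compared groups alone, no variance trend and leaving out each library. Positions and 3′ ends came from GENCODE M21, 1 principal transcript per gene where annotated, and promoters from RefSeq GRCm38.p6; 1 further sequence is not reported here. Figures were drawn with matplotlib 3.10.9.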

Additional observations from a re-analysis of the deposited data

Results flagged for a closer look

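The effect of Ago2 kd on Syncrip, an RNA-binding protein of mRNA particles, differed between the stages. Its interaction was -2.65 log2 units (standard error 0.27, limma adjusted p = 0.00505, kept in 19 of 19 alternatives). Syncrip has no value under the stricter filter, which could not test it. It reached 1 FPKM in the 4-cell control libraries alone, so the filter fixed a lower 4-cell Ago2 kd value in advance. Its zeros in oocyte and 2-cell libraries add no spread, which makes the standard error small. It was listed at 0 in all 4 libraries of the 2-cell stage, so this repeats the difference at the 4-cell stage, where both Ago2 kd libraries lay below both controls. Replicate 1 of 4-cell Ago2 kd stood apart from the other libraries, and its part in this value was not tested beyond leaving it out. Groups of 2 libraries are too small for a check of single outlying samples.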

How the results depend on the processing

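The 5 tested storage genes gave 693 differences under an alternative, of which 672 kept their side of the threshold, 17 lost a call and 4 gained one; no called difference changed sign, and 20 uncalled ones did. Storage genes called from oocyte to 2-cell control numbered 4, against 2 after scaling to 1 FPKM total. From 2-cell to 4-cell control they numbered 2, against 1 in the fit of these groups alone and 1 to 2 when 1 library was left out; the calls of Lsm14b without replicate 1 or 2 of the 2-cell control or replicate 2 of the 4-cell control had adjusted p of 0.0508 to 0.0641. The early call of Eif4enif1 had adjusted p of 0.0521 to 0.165 in the 6 fits that left out 1 library and lost it. The cause was not tested.

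Over all genes, 1811 were called from oocyte to 2-cell control, 1034 to 1913 when 1 library was left out and 1038 with the oocyte libraries averaged. The 48 genes called for Ago2 kd at the 2-cell stage became 95 with no filter, 0 in limma's fit of these groups alone (542 at an unadjusted p below 0.05), and 34 to 105 when 1 library was left out. The 349 at the 4-cell stage became 122 with 1 FPKM required in 4 libraries, 0 in limma's fit of these groups alone (950 at an unadjusted p below 0.05), and 257 to 663 when 1 library was left out, with 663 without replicate 2 of 4-cell Ago2 kd. From 2-cell to 4-cell Ago2 kd, 3076 became 1850 in the fit of these groups alone, and the 199 of the interaction became 58 with the stricter filter and 163 to 482 when 1 library was left out. Of calls from oocyte to 4-cell control, 45.5% were higher, against 56.0% after scaling to 1 total; for Ago2 kd at the 4-cell stage, 30.7% were higher, against 41.2% after scaling to 1 median. Cpeb1 has no value under the stricter filter.

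No pairing of the samples by replicate number was seen: over 10 pairs of groups the correlation of same-numbered deviations was -0.093 to 0.092. Such values cannot show whether same-numbered libraries were prepared together, which the labels do not say. With the replicate block, the 48 genes called for Ago2 kd at the 2-cell stage became 23, and the numbers of storage genes called were as without it.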
